A study of Mus musculus with 12 samples.

Results

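The 9 genes described here encode the ligands VEGF-A, VEGF-B, VEGF-C and placental growth factor (Vegfa, Vegfb, Vegfc, Pgf), the receptor tyrosine kinases VEGFR-2, VEGFR-1 and VEGFR-3 (Kdr, Flt1, Flt4) and the neuropilin co-receptors (Nrp1, Nrp2). They were taken by name from a table of 35275 genes, and all 9 passed the filter on low counts that left 15150 genes. RNA was sequenced from cultured cardiac fibroblasts of 12-week-old Smad7 floxed mice (C57BL/6 by the labels, C57BL/6J by the study's methods) at passage 2, in 4 conditions with 3 libraries each. All cells were infected with adenovirus for 48 hours at an MOI of 100: unstimulated controls with a virus the labels name as GFP and the study's methods as empty, and Smad7-KO cells with a Cre-expressing virus. The sample titles call the control cells wild type. The study's methods describe floxed cells with a control virus, so all cells were taken here to carry the floxed allele. TGF-β1 control and TGF-β1 Smad7-KO cells also received TGF-β1 at 10 ng/ml, for 2 hours by the sample labels and 4 hours by the treatment protocol. The genotypes thus differ in the viral cargo as well as in Smad7, and effects of Cre itself cannot be told apart from those of Smad7 loss. The series describes its samples as independent, and nothing used here says whether they came from separate animals, so p values measure the spread between these samples.

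VEGF-A drives endothelial growth and permeability mainly through VEGFR-2, whereas VEGFR-1 binds VEGF-A, VEGF-B and placental growth factor tightly with weak signaling and can act as a decoy. VEGF-C acts through VEGFR-3, best known in lymphatic endothelium. Neuropilins lack a catalytic domain of their own, bind VEGFs and class 3 semaphorins, and work with VEGF receptors or plexins. In the heart, fibroblasts and other stromal cells are known as sources of VEGF ligands, and endothelial cells carry most VEGF receptors.

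Smad7 loss raised both neuropilins and lowered Flt1, with or without TGF-β1. TGF-β1 raised Vegfa and Flt1 and lowered Nrp1, in control and in Smad7-KO cells. Vegfb, Vegfc, Kdr and Flt4 passed the test in no comparison. These calls were not equally firm under the 23 alternative fits given below. Nrp2 with Smad7 loss under TGF-β1 lost its call in 13, and Flt1 with TGF-β1 in control cells in 14. The rise of Nrp1 in unstimulated cells was log2 0.31 (adjusted p = 0.0914, edgeR) with a gene length trend removed. As a check of the labels, Smad7 averaged 74.4 ± 2.94 (SD, n = 3) CPM (counts scaled to library size with TMM factors) in unstimulated control and 29.4 ± 1.48 (n = 3) in unstimulated Smad7-KO libraries (log2 -1.34, adjusted p = 9.02e-06, edgeR). With TGF-β1 the averages were 146 ± 4.24 CPM for control and 76.8 ± 5.89 CPM for Smad7-KO libraries (log2 -0.92, adjusted p = 1.15e-04, edgeR), so that TGF-β1 Smad7-KO libraries held about as much Smad7 RNA as unstimulated controls. Smad7 loss here means this partial reduction in RNA counted per gene. In the floxed allele, loxP sites surround the promoter and first exon. The study documented the loss of Smad7 in such cells by qPCR and Western blotting. Libraries held 19056916 to 25371321 counts. Unstimulated control replicate 2 had the lowest depth of all libraries and the lowest Nrp2, Flt1, Flt4 and Kdr of the group, so values without it are given beside the group differences whose call or sign changed without it.

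The labelled cell type was checked against markers. The summed level of 10 fibroblast markers ranged from 7425 to 11496 CPM in unstimulated controls and from 8662 to 10198 CPM in the other groups. Macrophage markers summed higher than fibroblast markers in every library, although sums over different genes do not give shares of cells. Over 12 macrophage genes the summed level was 16690 to 26123 CPM in unstimulated control and 16815 to 19462 in TGF-β1 control libraries. In Smad7-KO libraries it was 23558 to 25851 CPM unstimulated and 23193 to 26060 with TGF-β1. Csf1r, the receptor that sustains macrophages, averaged 918 ± 186 CPM (SD, n = 3) in unstimulated control and 1377 ± 5.09 CPM (n = 3) in unstimulated Smad7-KO libraries. Endothelial markers, 16 genes, summed to 304 to 359 CPM in unstimulated control and 307 to 351 in TGF-β1 control, but to 53.7 to 64.2 and 51.6 to 53.7 in the Smad7-KO groups. With Smad7 loss in unstimulated cells, 2 of 10 fibroblast markers rose and 2 fell, 3 of 8 tested smooth muscle and pericyte markers, 4 of 7 epicardial and 2 of 4 cardiomyocyte markers fell and 0 of these rose, where 12.1% of all tested genes rose and 13.7% fell. With TGF-β1 the summed level of 10 smooth muscle and pericyte markers was higher without overlap. It ranged from 209 to 334 CPM in unstimulated and from 453 to 523 CPM in TGF-β1 control libraries. In Smad7-KO libraries it ranged from 227 to 234 CPM unstimulated and from 398 to 421 CPM with TGF-β1. In control and Smad7-KO cells, 3 and 4 of 8 were called higher and 0 lower, where 5.04% and 5.33% of all tested genes rose. Mcam, Cspg4 and Pdgfrb were among those called in both genotypes, and the part of such cells in the TGF-β1 results was not tested. In these bulk samples, fewer cells of a type and less RNA per cell cannot be told apart.

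Levels per gene length (FPKM, fragments scaled to gene length and library size) placed the 9 genes in an upper and a lower set that stayed apart in all 4 groups. Nrp1, Nrp2, Vegfa and Vegfb averaged between 23.8 and 71.2 FPKM, Vegfc between 8.03 and 9.49 FPKM, and Flt1, Pgf, Flt4 and Kdr between 0.272 and 2.61 FPKM. In unstimulated control, Nrp1 led at 44.8 ± 5.54 FPKM (SD, n = 3), followed by Vegfb at 29.2 ± 3.77, Vegfa at 29.1 ± 3.63 and Nrp2 at 27.3 ± 11.6, of which the last 3 overlapped. Vegfc followed at 9.37 ± 1.24 FPKM, then Flt1 at 1.30 ± 0.627, Pgf at 1.03 ± 0.317 and Flt4 at 0.752 ± 0.247, each overlapping with the next of these 3, and Kdr came last at 0.272 ± 0.148. With TGF-β1, Vegfa led in control cells at 48.3 ± 3.17 FPKM, clear of Nrp2 at 32.3 ± 5.73, which overlapped with Nrp1 at 29.2 ± 1.96. In unstimulated Smad7-KO cells, Nrp1 at 71.2 ± 2.96 FPKM was clear of Nrp2 at 56.3 ± 1.33, and Flt1 at 0.409 ± 0.0433 overlapped with Pgf at 0.391 ± 0.163, which overlapped with Kdr at 0.342 ± 0.0391. In TGF-β1 Smad7-KO cells, Nrp2 led at 55.4 ± 6.23 FPKM and overlapped with Vegfa, which was clear of Nrp1 at 42.1 ± 3.42.

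**Figure D1:**
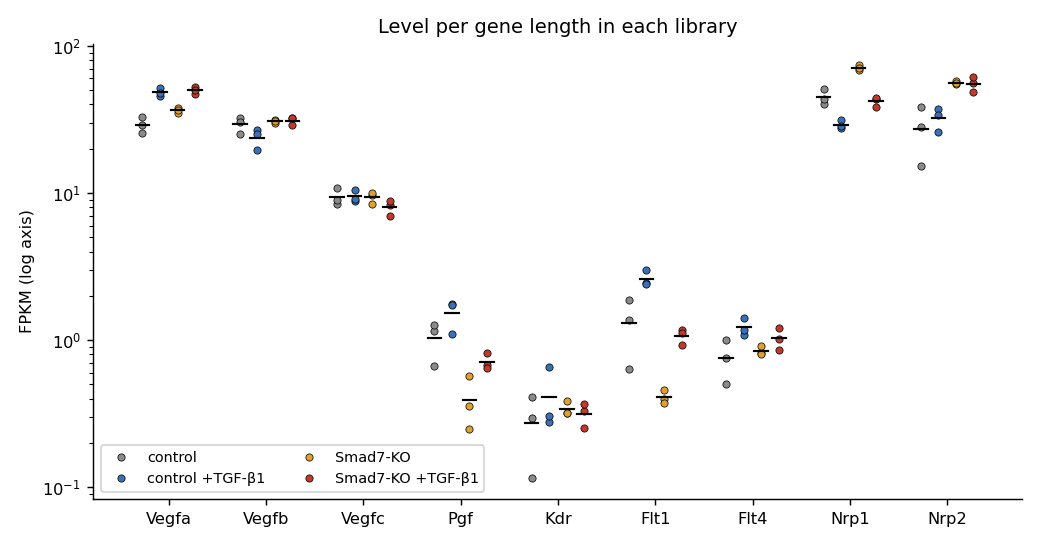
FPKM on a log axis for each of the 9 genes, 1 point per library and a bar at the mean of 3, by group. Nrp1, Nrp2, Vegfa and Vegfb lie above Vegfc, and Flt1, Pgf, Flt4 and Kdr below it, in all 4 groups.

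All 9 genes matched an entry among RefSeq promoters (GRCm38.p6), and the 250 bases before the start site nearest to the deposited 5′ end were searched on both strands. Searched were CAGAC, the core of a Smad element, then GGGCGG, a GC box, then the hypoxia element core ACGTG, and CCGGAA, an ETS site. The GC box was present in 9 of 9 windows and in 32.7% of all 32851 promoter windows. CAGAC was present in 1 of 9, Vegfa, and in 42.2% of all. ACGTG was in 0 of 9 and 16.6% of all, and CCGGAA in 1 of 9, Kdr, and 12.0% of all. GC content was 59.2% to 76.4% in the 9 windows against a median of 52.4%. The windows of the 4 genes called in 2 or more comparisons are shown, 5′ to 3′ on the gene's strand, with GGGCGG and CAGAC matches of either strand in capitals. They lie at chr17:46032378-46032627 (minus strand, Vegfa, 1 of 2 RefSeq start sites), chr5:147726012-147726261 (minus, Flt1), chr8:128358823-128359072 (plus, Nrp1) and chr1:62703067-62703316 (plus, Nrp2). A match is a run of letters and not a site, and a window without one says nothing about the factor. In Vegfa a CAGAC match on the other strand shares 1 base with a GGGCGG match, and in Nrp2 GC box matches overlap each other.
Vegfa: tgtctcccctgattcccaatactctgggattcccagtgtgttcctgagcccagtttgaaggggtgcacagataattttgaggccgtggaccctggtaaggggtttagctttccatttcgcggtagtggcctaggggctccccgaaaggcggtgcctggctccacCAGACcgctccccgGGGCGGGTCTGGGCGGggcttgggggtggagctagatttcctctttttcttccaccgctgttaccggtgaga
Flt1: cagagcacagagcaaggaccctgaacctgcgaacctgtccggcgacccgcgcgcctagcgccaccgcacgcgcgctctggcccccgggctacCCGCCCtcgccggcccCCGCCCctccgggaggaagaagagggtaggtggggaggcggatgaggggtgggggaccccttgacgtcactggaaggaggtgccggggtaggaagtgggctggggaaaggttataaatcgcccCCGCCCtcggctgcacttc
Nrp1: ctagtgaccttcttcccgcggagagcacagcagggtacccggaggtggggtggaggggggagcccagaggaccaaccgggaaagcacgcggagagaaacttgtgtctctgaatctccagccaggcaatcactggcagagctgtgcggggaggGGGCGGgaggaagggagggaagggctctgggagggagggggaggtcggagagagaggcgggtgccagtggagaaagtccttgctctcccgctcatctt
Nrp2: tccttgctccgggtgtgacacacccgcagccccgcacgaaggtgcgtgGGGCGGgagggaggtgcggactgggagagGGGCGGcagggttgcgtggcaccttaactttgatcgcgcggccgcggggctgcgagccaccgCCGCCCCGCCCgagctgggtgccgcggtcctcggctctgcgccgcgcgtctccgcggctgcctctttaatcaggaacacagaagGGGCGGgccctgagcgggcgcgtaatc

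At an adjusted p of 0.05 or less, Smad7 loss in unstimulated cells raised 3 of 9 genes (Vegfa, Nrp1, Nrp2) and lowered 2 (Pgf, Flt1), where 25.8% of all tested genes passed, 12.1% higher and 13.7% lower. With TGF-β1 it raised 2 (Nrp1, Nrp2) and lowered 1 (Flt1), where 13% passed, 5.72% higher and 7.23% lower. TGF-β1 raised 2 (Vegfa, Flt1) and lowered 1 (Nrp1) in control cells, where 8.37% passed, 5.04% higher and 3.33% lower. It raised the same 2 and lowered the same 1 in Smad7-KO cells, where 10.2% passed, 5.33% higher and 4.9% lower. Libraries of the groups did not overlap for 5, 5, 4 and 4 of 9 genes in these comparisons, where 41.3%, 44.9%, 19.8% and 39% of all tested genes did not overlap. In the last of these 19% of genes did so higher and 19.9% lower. Median log2 fold changes of the 9 genes were 0.15, -0.20, 0.54 and 0.06, against -0.02, -0.02, -0.03 and -0.01 over all genes. These comparisons share libraries and are not independent of each other. The interaction, which tests whether Smad7 loss acts differently with TGF-β1, called 0 of 9 genes by edgeR (0 at an unadjusted p under 0.05, 0 by DESeq2), where 0.0198% of all genes passed and 2.59% had an unadjusted p under 0.05. A response to TGF-β1 that differs between genotypes was thus not detectable for these genes.

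**Figure D2:**
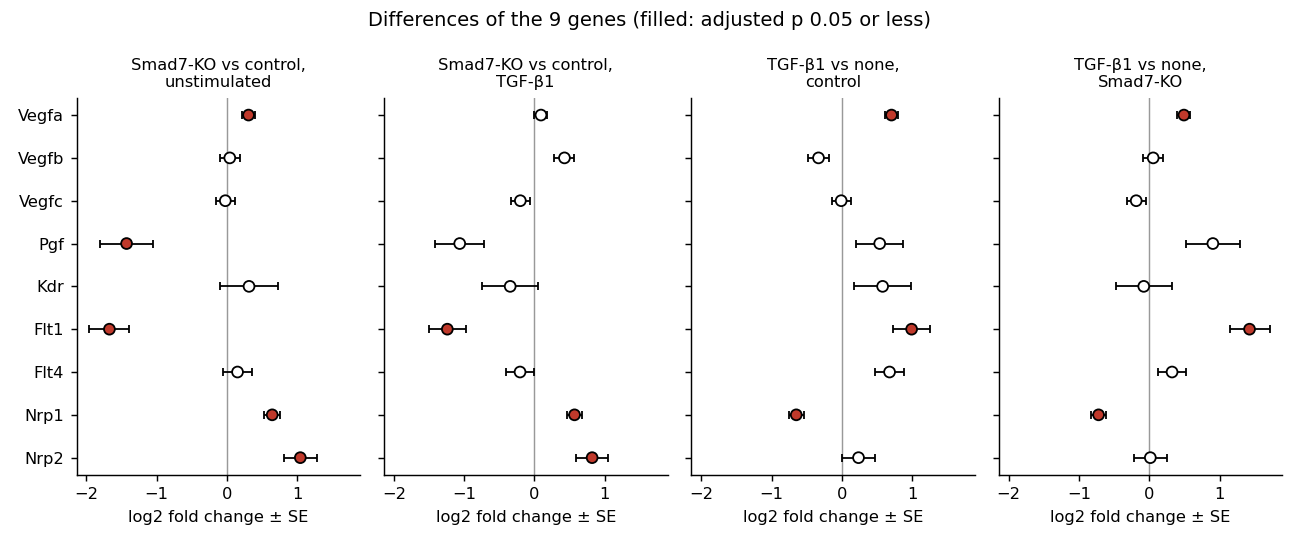
Log2 fold change with its SE for the 9 genes in 4 comparisons, filled where the adjusted p was 0.05 or less. Flt1 lies left of 0 with Smad7 loss and right of 0 with TGF-β1, and Nrp1 the reverse.

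Among ligands, Vegfa (ENSMUSG00000023951, chromosome 17, 46016993 to 46032377, with coordinates here and for the other genes as deposited, on mm10), the main angiogenic ligand, rose with TGF-β1 in both genotypes. In unstimulated control libraries its level was 98.0, 95.7 and 108 CPM, and in TGF-β1 control libraries it was 175, 156 and 163 CPM. These groups did not overlap, and the fold was 1.63 (log2 fold change 0.71, SE 0.0926, adjusted p = 4.70e-04, quasi-likelihood test of edgeR, Benjamini-Hochberg adjusted). In unstimulated Smad7-KO libraries it was 119, 129 and 126 CPM, and with TGF-β1 166, 185 and 176 CPM, again without overlap, a fold of 1.41 (log2 0.49, SE 0.0923, adjusted p = 0.00458, same edgeR test). Both TGF-β1 differences held in all 23 alternative fits. Smad7 loss alone gave a smaller rise, of 1.24-fold, with all 3 Smad7-KO libraries above all 3 unstimulated controls (log2 0.31, SE 0.0923, adjusted p = 0.0342, edgeR). That call was lost in 12 of 23 alternative fits, with adjusted p up to 0.147, among them each fit without 1 unstimulated Smad7-KO library or without unstimulated control replicate 1. With TGF-β1 present, Smad7-KO and control libraries overlapped (log2 0.09, SE 0.0920, adjusted p = 0.514, edgeR).

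Pgf (ENSMUSG00000004791, chromosome 12, 85166639 to 85177296), a VEGFR-1 ligand, was rare. Its counts were 40, 38 and 24 in unstimulated and 42, 68 and 56 in TGF-β1 control libraries. In Smad7-KO libraries they were 18, 13 and 9 unstimulated and 27, 29 and 22 with TGF-β1. In CPM (1.79, 2.17 and 1.01 in unstimulated control, 0.892, 0.558 and 0.390 in unstimulated Smad7-KO libraries), Smad7-KO libraries lay below controls without overlap in both conditions. In unstimulated cells Pgf fell by 1.43 on the log2 scale (SE 0.380, adjusted p = 0.0223, edgeR), a call lost in 7 of 23 alternative fits (adjusted p up to 0.108), among them the fit without unstimulated control replicate 2 (log2 -1.19, adjusted p = 0.0538). With TGF-β1 the difference was -1.06 (SE 0.346) and missed the threshold (adjusted p = 0.0660, edgeR), although 6 of 23 alternative fits called it, among them the one without unstimulated control replicate 2 (-1.04, adjusted p = 0.0299). The TGF-β1 differences, 0.54 (SE 0.339) in control and 0.90 (SE 0.387) in Smad7-KO cells, did not pass (adjusted p = 0.427 and 0.209, edgeR).

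Vegfb (ENSMUSG00000024962, chromosome 19, 6982473 to 6987651), a VEGFR-1 ligand, was at 40.5, 42.4 and 30.7 CPM in unstimulated and 24.7, 33.8 and 31.7 CPM in TGF-β1 control libraries. In Smad7-KO libraries it was at 38.2, 39.6 and 39.1 CPM unstimulated and 41.8, 37.7 and 41.9 CPM with TGF-β1. No comparison called it. The nearest was Smad7 loss with TGF-β1, where the groups did not overlap (log2 0.43, SE 0.143, adjusted p = 0.0710, edgeR), and 7 of 23 alternative fits called it, among them the one without unstimulated control replicate 2 (0.45, adjusted p = 0.0202). With a trend of fold change with gene length removed, described with Nrp1, that value was 0.61 and Smad7 loss in unstimulated cells gave 0.39 in place of 0.04 (adjusted p = 6.30e-04 and 0.00961, edgeR). Vegfc (ENSMUSG00000031520, chromosome 8, 54077532 to 54186454), the VEGFR-3 ligand, ranged from 13.3 to 19.8 CPM over all 12 libraries, with group differences between -0.20 and -0.01 on the log2 scale (SE 0.134 for Smad7 loss with TGF-β1, adjusted p = 0.338, edgeR). The other lymphangiogenic ligand, Vegfd (listed as Figf), is no member and averaged 238 ± 11.7 CPM (SD, n = 3) in unstimulated controls. It fell by 0.34 with Smad7 loss in unstimulated cells and by 0.40 with TGF-β1 in control cells on the log2 scale (adjusted p = 0.0223 and 0.0178, edgeR). With TGF-β1 present, Smad7 loss gave -0.13, and TGF-β1 in Smad7-KO cells gave -0.19, and neither passed (adjusted p = 0.355 and 0.289, edgeR).

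Among receptors, Flt1 (ENSMUSG00000029648, chromosome 5, 147561604 to 147726011) was the most changed of the 9 genes. It was at 9.28, 4.80 and 12.5 CPM in unstimulated control and at 3.12, 2.70 and 2.56 CPM in unstimulated Smad7-KO libraries. With TGF-β1 it was at 20.2, 16.6 and 16.4 CPM in control and at 8.14, 7.92 and 6.46 CPM in Smad7-KO libraries. Every Smad7-KO library lay below every control library of its condition, and every TGF-β1 library above every unstimulated one of its genotype. With Smad7 loss Flt1 was 3.19-fold lower in unstimulated cells (log2 -1.67, SE 0.285, adjusted p = 0.00272) and 2.36-fold lower with TGF-β1 (log2 -1.24, SE 0.265, adjusted p = 0.0111, quasi-likelihood test of edgeR, Benjamini-Hochberg adjusted), and both calls held in all 23 alternative fits. TGF-β1 raised it 1.99-fold in control (log2 0.99, SE 0.263, adjusted p = 0.0382) and 2.69-fold in Smad7-KO cells (log2 1.43, SE 0.285, adjusted p = 0.00701, edgeR). The call in control cells was lost in 14 of 23 alternative fits (adjusted p up to 0.241), and without unstimulated control replicate 2 the value was 0.70 (adjusted p = 0.0174); that in Smad7-KO cells was lost in 2.

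Kdr (ENSMUSG00000062960, chromosome 5, 75932827 to 75978458) and Flt4 (ENSMUSG00000020357, chromosome 11, 49609263 to 49652739), receptors of blood and lymphatic endothelium, did not pass in any comparison. Kdr had 13 to 94 counts per library, 1.70, 0.743 and 2.32 CPM in unstimulated control and 1.88, 2.27 and 1.87 CPM in unstimulated Smad7-KO libraries, and groups overlapped throughout (log2 0.31, SE 0.407, for Smad7 loss unstimulated and -0.34, SE 0.396, with TGF-β1, adjusted p = 0.566 and 0.582, edgeR). Flt4 had 4.62, 3.43 and 5.99 CPM in unstimulated control and 8.65, 6.75 and 7.19 CPM in TGF-β1 control libraries, without overlap (log2 0.68, SE 0.205, adjusted p = 0.0685, edgeR, called in 4 of 23 alternative fits). In Smad7-KO libraries it overlapped, at 5.05, 5.62 and 4.99 CPM unstimulated and 7.62, 5.47 and 6.51 CPM with TGF-β1. Without unstimulated control replicate 2, Smad7 loss in unstimulated cells gave -5.8e-05 for Kdr and -0.0197 for Flt4 in place of 0.31 and 0.15. At these counts, 9 to 94 per library, smaller differences of Pgf and Kdr were not detectable.

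In unstimulated control libraries Pecam1, a junction protein of endothelial cells, averaged 51.0 ± 2.97 CPM (SD, n = 3) against 2.53 ± 0.436 in unstimulated Smad7-KO libraries, and Cdh5, VE-cadherin, at 34.3 ± 10.0 and 3.06 ± 0.462 CPM. Of 14 tested endothelial markers, 12 fell and 1, Vwf, rose with Smad7 loss in unstimulated cells (median log2 -3.50 against -0.02 over all genes), and 11 fell and 1 rose with TGF-β1. Over all tested genes, 13.7% and 7.23% fell in these comparisons, and 12.1% and 5.72% rose. TGF-β1 lowered 1 of 14 in each genotype, where 3.33% and 4.9% of all tested genes fell. This was Tek, an angiopoietin receptor (log2 -0.72 in control and -1.10 in Smad7-KO cells, adjusted p = 0.0274 and 0.00228, edgeR). Flt1 fell beside the endothelial list with Smad7 loss and rose with TGF-β1, where 0 of 14 markers rose. Within unstimulated controls, the endothelial sum was 340, 359 and 304 CPM in replicates 1, 2 and 3, where Flt1 was 9.28, 4.80 and 12.5 CPM. The part of endothelial RNA in the Flt1 result was not tested. Of 6 lymphatic markers, which summed to 204 to 273 CPM over all libraries, 2 were tested: Pdpn, podoplanin, which is also known outside lymphatic vessels, made up nearly all of that sum and fell with Smad7 loss in unstimulated cells (257 ± 14.5 against 212 ± 7.93 CPM, SD, n = 3, log2 -0.28, adjusted p = 0.0366, edgeR), and Prox1, the lymphatic transcription factor, was between 0.613 and 2.11 CPM and was not called. Lyve1 was at most 0.548 CPM in every library.

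**Figure D3:**
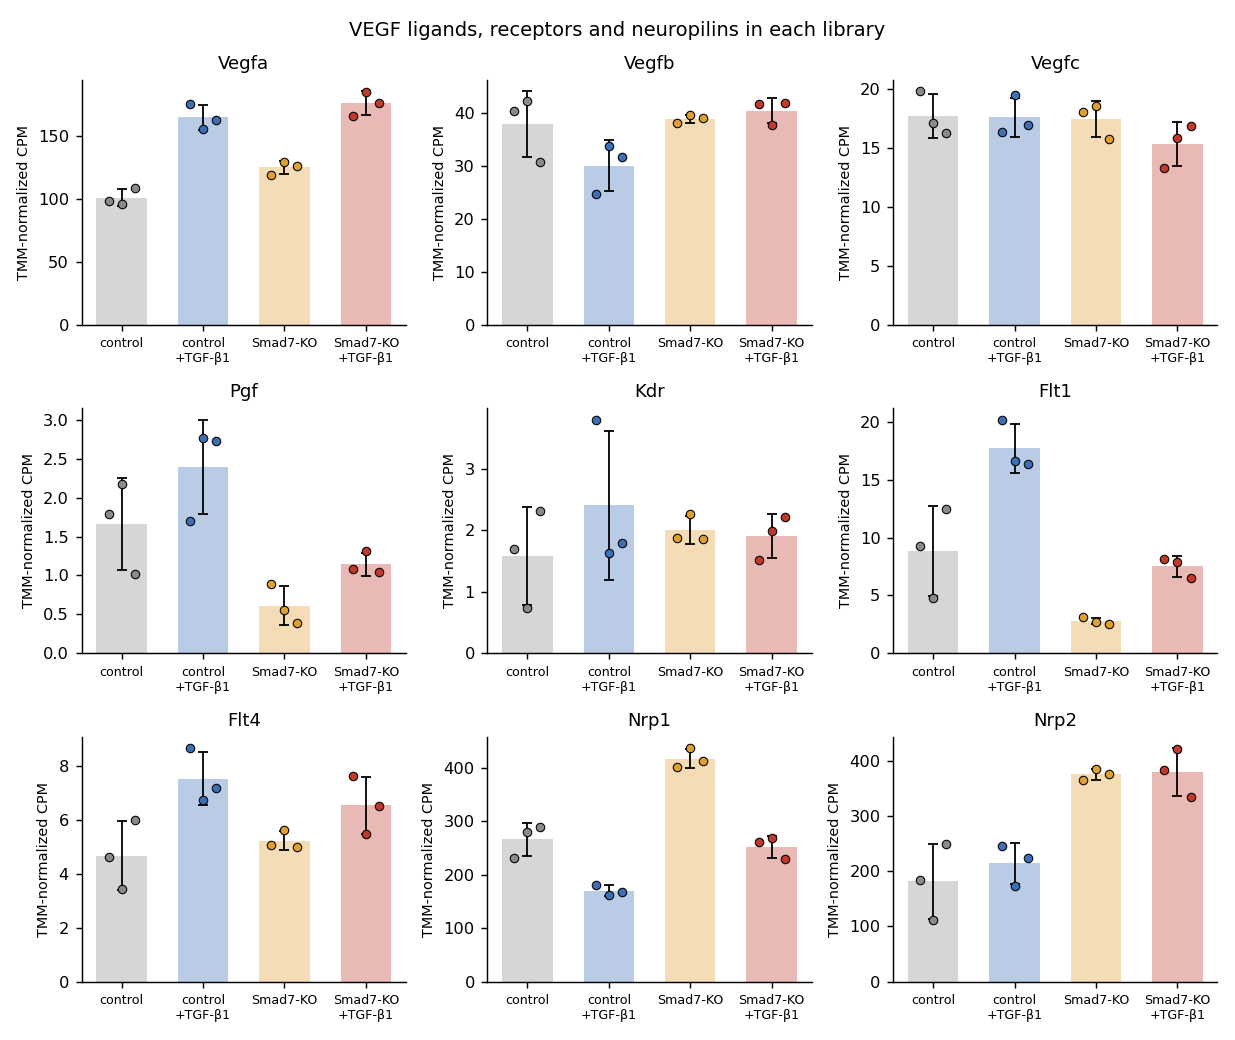
TMM-normalized CPM on a linear axis from 0 for each gene, by group, with 1 point per library, a bar at the mean and a line for ± SD (n = 3). Every Smad7-KO point lies below every control point of its condition for Flt1 and above for Nrp1 and Nrp2, and Kdr and Vegfc points overlap.

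Both neuropilins were higher with Smad7 loss. Nrp1 (ENSMUSG00000025810, chromosome 8, 128359073 to 128505462), a co-receptor of VEGF-A and of class 3 semaphorins, was at 232, 280 and 289 CPM in unstimulated control and at 402, 437 and 413 CPM in unstimulated Smad7-KO libraries. With TGF-β1 it was at 182, 162 and 167 CPM in control and at 261, 268 and 229 CPM in Smad7-KO libraries. The Smad7-KO libraries lay above the controls in both conditions, and TGF-β1 libraries below unstimulated ones in both genotypes. Smad7 loss raised it 1.56-fold in unstimulated cells (log2 0.64, SE 0.110, adjusted p = 0.00272) and 1.49-fold with TGF-β1 (log2 0.57, SE 0.110, adjusted p = 0.00651, edgeR), and TGF-β1 lowered it 1.57-fold in control and 1.65-fold in Smad7-KO cells (log2 -0.65 and -0.72, SE 0.110 each, adjusted p = 0.00291 and 0.00112, edgeR). The rise in unstimulated cells was 0.31 (adjusted p = 0.0914, edgeR) once a trend of fold change with gene length was removed: the 5050 longest of 15150 genes had a median log2 fold change of 0.29 and the 5050 shortest -0.39 in that comparison, and Nrp1, Nrp2 and the receptors are among the longest. TGF-β1 in Smad7-KO cells showed no such trend (medians of -0.03 and 0.01), and that decrease of Nrp1, like the rise with Smad7 loss under TGF-β1, held in all 23 alternative fits. The decrease in control cells was lost in 1, edgeR on those libraries alone (adjusted p = 0.0705), and the rise in unstimulated cells in 3.

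Nrp2 (ENSMUSG00000025969, chromosome 1, 62703285 to 62818695), the partner of VEGF-C and semaphorin 3F, was at 185, 112 and 248 CPM in unstimulated control and at 365, 384 and 375 CPM in unstimulated Smad7-KO libraries. With TGF-β1 it was at 246, 174 and 224 CPM in control and at 383, 420 and 334 CPM in Smad7-KO libraries. The Smad7-KO libraries lay above the controls without overlap in both conditions, while TGF-β1 and unstimulated libraries overlapped in both genotypes. Smad7 loss raised it 2.06-fold in unstimulated cells (log2 1.04, SE 0.234, adjusted p = 0.0107) and 1.77-fold with TGF-β1 (log2 0.82, SE 0.233, adjusted p = 0.0392, edgeR). Without unstimulated control replicate 2 the first value was 0.80 (adjusted p = 0.00520, edgeR), and 1 of 23 alternative fits lost it, edgeR on those libraries alone (adjusted p = 0.0746). The second was lost in 13 of 23 alternative fits (adjusted p up to 0.155), including fits without any 1 TGF-β1 library. With the length trend removed the first was 0.74. The TGF-β1 differences were 0.24 (SE 0.232) and 0.01 (SE 0.231) and did not pass (adjusted p = 0.611 and 0.989, edgeR), and the first was -0.0158 without unstimulated control replicate 2. Nrp2 overlaps an antisense gene that held 22 counts over all 12 libraries, and no other member overlaps another gene.

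Nrp2 had the closest companions of the 9 genes: over 12 libraries its log2 CPM correlated with Dock2 and Stab1 at Pearson r = 0.996 and 0.995, out of 15149 genes compared, as a description of points that share 4 groups. Dock2 is a guanine exchange factor of blood cells and Stab1 a scavenger receptor of macrophages and sinusoidal endothelium. Of 12 macrophage markers, 7 rose and 0 fell with Smad7 loss in unstimulated cells (median log2 0.49 against -0.02 over all genes), among them Mertk (0.99), Mrc1 (0.74) and Ptprc (0.72), and 5 rose with TGF-β1. Over all tested genes, 12.1% and 5.72% rose in these comparisons. The macrophage sums of control and Smad7-KO libraries overlapped in unstimulated cells and did not overlap with TGF-β1. The macrophage sum in unstimulated controls was 22013, 26123 and 16690 CPM in replicates 1, 2 and 3, where Nrp2 was 185, 112 and 248 CPM. Replicate 2 was also the lowest of this group in Vegfa, Flt1, Flt4, Kdr and the summed level of plexins. It was the highest in Pgf (2.17 CPM) and Vegfb (42.4 CPM) and lay between the others in Nrp1 and Vegfc. The part of macrophage RNA in the Nrp2 result was not tested. The genes most like Nrp1 were Znrf2 (r = 0.991) and Fgd4 (0.989), most like Vegfa were Spata13 (0.989) and Zfp451 (0.982), and most like Flt1 were Ddah1 (0.984) and 1810055G02Rik (0.984). For Flt4 they were Btbd11 (0.962) and Dcaf10 (0.950), for Pgf Pitpnb (0.960) and Tlcd1 (0.954), for Kdr 9230112E08Rik (0.935) and Rgp1 (0.934), for Vegfb Tgfb1 (0.922) and Phyh (0.911) and for Vegfc Rpl30-ps10 (0.870) and Tomm40l (0.848). Between members, Flt1 and Nrp1 ran most opposite (r = -0.92) and Vegfa and Flt4 most alike (r = 0.777).

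**Figure D4:**
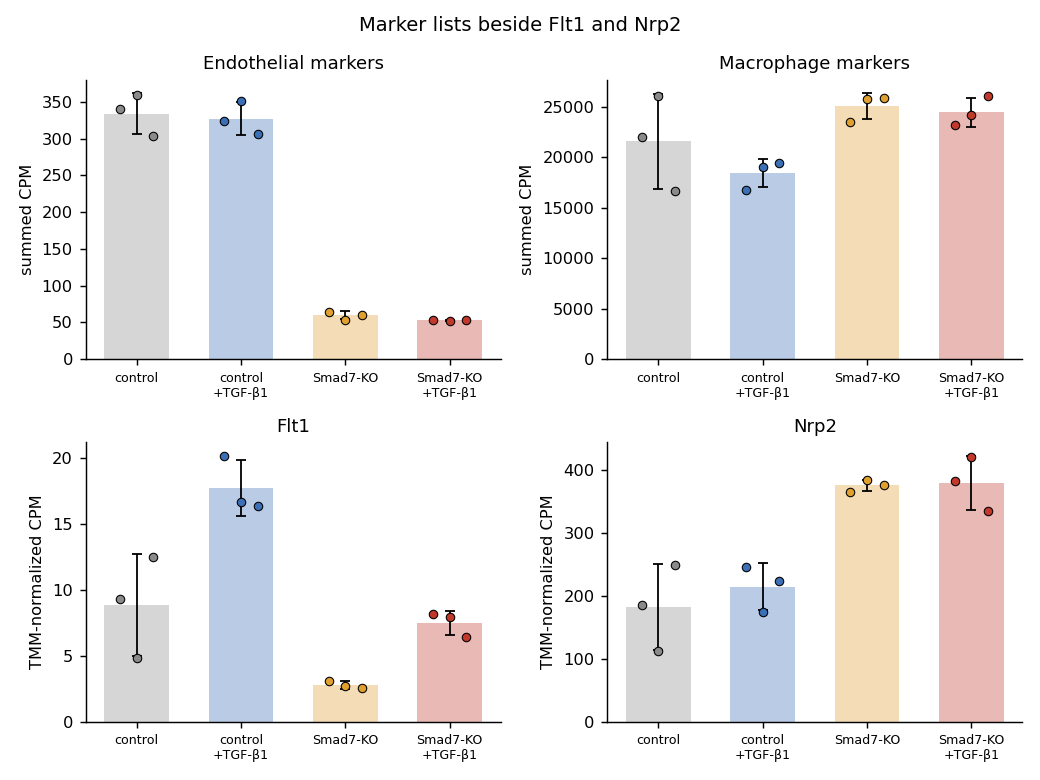
Summed CPM of the endothelial and macrophage marker lists (upper panels) and CPM of Flt1 and Nrp2 (lower panels), 1 point per library, bars at the mean and lines for ± SD (n = 3). Endothelial sums lie at 304 to 359 CPM in unstimulated control and 53.7 to 64.2 CPM in unstimulated Smad7-KO libraries, beside lower Flt1 and higher Nrp2.

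Class 3 semaphorins and plexins, ligands and partners of the neuropilins, were read next. Of 6 tested semaphorins, 4 fell and 0 rose with Smad7 loss in each condition, where 13.7% of all tested genes fell in unstimulated cells and 7.23% with TGF-β1. Sema3f, a Nrp2 ligand, averaged 62.1 ± 5.92 CPM (SD, n = 3) in unstimulated control and 25.9 ± 3.75 CPM in unstimulated Smad7-KO libraries (log2 -1.26, SE 0.115, adjusted p = 5.30e-05, edgeR). Sema3a, a Nrp1 ligand, fell by 1.35 and Sema3e, a ligand of plexin D1, by 1.07 on the log2 scale (adjusted p = 0.00361 and 0.00901, edgeR). With TGF-β1 their differences were -1.27, -1.46 and -1.07 (adjusted p = 6.14e-05, 0.00337 and 0.0115, edgeR). The median over the 6 genes was -0.79 in unstimulated cells against -0.02 over all genes. Of 5 plexins, 2 rose and 0 fell with Smad7 loss in unstimulated cells, where 12.1% of all genes rose, namely Plxna1 (1.18, adjusted p = 0.0286, edgeR) and Plxnd1 (1.03, adjusted p = 0.00838, edgeR). With TGF-β1 present 1, Plxnd1 (1.09, adjusted p = 0.00823, edgeR), rose with Smad7 loss, where 5.72% of all genes rose. Plxna1 ranged from 77.5 to 256 CPM in unstimulated control and from 355 to 391 CPM in unstimulated Smad7-KO libraries. Summed plexin levels were 309, 181 and 480 CPM in unstimulated control replicates 1, 2 and 3. Alternative fits were read for the 9 genes only. How far replicate 2, the gene length trend or the mix of cell types shaped the semaphorin and plexin results was thus not tested. TGF-β1 raised Plxna4 in control (1.28, adjusted p = 0.0109, edgeR) and Smad7-KO cells (1.99, adjusted p = 5.86e-04, edgeR), 1 of 5 plexins in each, and lowered 0 of 6 semaphorins in control and 1, Sema3c (-0.59, adjusted p = 0.0495, edgeR), in Smad7-KO cells.

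**Figure D5:**
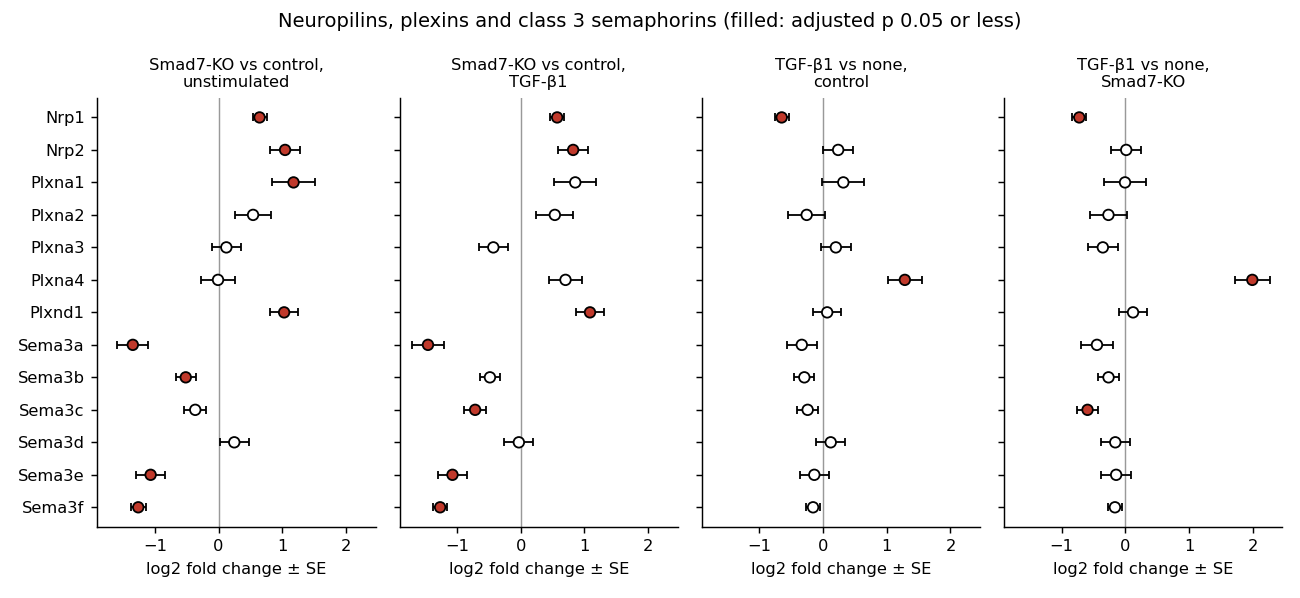
Log2 fold change with its SE for neuropilins, plexins and class 3 semaphorins in 4 comparisons, filled where the adjusted p was 0.05 or less. With Smad7 loss, filled neuropilins and plexins lie right of 0 and filled semaphorins left of 0.

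Of 28 tested receptor partners and proximal signaling genes, 5 rose and 5 fell with Smad7 loss in unstimulated cells, 4 and 6 with TGF-β1, 3 and 2 with TGF-β1 in control and 1 and 3 in Smad7-KO cells. Over all tested genes, 25.8%, 13%, 8.37% and 10.2% were called in these comparisons. With Smad7 loss in unstimulated cells, Prkcb, a protein kinase C, rose (0.97, adjusted p = 0.00169, edgeR) and Ptk2, focal adhesion kinase, fell (-0.73, adjusted p = 4.97e-04, edgeR). Dab2, an endocytic adaptor of VEGF receptors, fell with TGF-β1 by 1.42 in control and 1.19 in Smad7-KO cells on the log2 scale (adjusted p = 3.27e-04 and 8.91e-04, edgeR). Of 11 genes known to be induced through VEGF receptors in endothelium, 5 fell and 1 rose with Smad7 loss in each condition: Nr4a1, a nuclear receptor (log2 -1.33 unstimulated, adjusted p = 2.22e-04, edgeR), and Esm1, endocan (-1.31, adjusted p = 2.34e-04, edgeR), fell, and the chemokine receptor Cxcr4 rose (0.80, adjusted p = 2.32e-04, edgeR). With TGF-β1, 1 rose and 1 fell in control, and 1 rose and 2 fell in Smad7-KO cells. For TGF-β1, 5.04% and 5.33% of all tested genes rose and 3.33% and 4.9% fell. Beside the falls with Smad7 loss, the sum of the 16 endothelial markers averaged 334 ± 28.0 and 59.5 ± 5.33 CPM (SD, n = 3) in unstimulated control and Smad7-KO libraries, and 328 ± 22.1 and 52.6 ± 1.01 CPM with TGF-β1. The part of endothelial RNA in these falls was not tested.

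Of 18 tested regulators of VEGF-A supply, 4 rose and 2 fell with Smad7 loss in unstimulated cells, 3 and 1 with TGF-β1, and 3 and 1 with TGF-β1 in each genotype, where 25.8%, 13%, 8.37% and 10.2% of all tested genes were called. Hif1a, the hypoxia-inducible subunit, rose in all 4 comparisons (0.38, 0.45, 0.50 and 0.57, adjusted p = 0.0298, 0.0195, 0.0137 and 0.00534, edgeR), and Vhl, which marks that subunit for destruction, rose with TGF-β1 by 1.53 in control and 1.76 in Smad7-KO cells (adjusted p = 1.73e-06 and 3.48e-07, edgeR). Ccn2, a matricellular protein that binds VEGF-A, fell with Smad7 loss by 1.51 and 1.04 and rose with TGF-β1 by 1.80 and 2.27 on the log2 scale (adjusted p from 3.54e-05 to 0.00691, edgeR). The fall is opposite to the study's PCR array, which reported higher Ccn2 in fibroblasts without Smad7, and the reason was not tested. Of 12 hypoxia target genes, 2 rose and 1 fell with Smad7 loss in unstimulated cells, 1 and 0 with TGF-β1, 3 and 1 with TGF-β1 in control and 3 and 2 in Smad7-KO cells, beside the same shares over all genes, so that with Smad7 loss the list was near or below them. Beside the rise of Vegfa with TGF-β1, the glycolytic genes Hk2 (1.80 and 1.96), Pfkfb3 (1.19 and 0.88) and Slc2a1 (0.59 and 0.59) rose and Adm, adrenomedullin, fell (adjusted p = 1.03e-04 and 0.00164, edgeR), so the targets moved in both directions.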

How the data were processed

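The deposited table gave each gene a raw count and an FPKM value. The authors' FPKM equaled the count scaled by length and by the sum of the library. The submitters' processing notes name CASAVA, TopHat2 2.0, Cufflinks 2.1.1, HTSeq 0.6.1, mm10 and GRCm38.p6; whether strand was used is not given in the sources used here. There were 0 unassigned columns. Counts were tested with edgeR 4.0.16 (R 4.3.3): filterByExpr (minimum count 10), TMM, robust quasi-likelihood fit to 12 libraries with a coefficient per group, and Benjamini-Hochberg adjustment over 15150 genes, called at 0.05 or less. SE was the coefficient over the root of F. The code was tested on simulated data. Alternatives used edgeR on the libraries of a comparison alone or with DESeq2 size factors, DESeq2 1.42.0, limma 3.58.1 on log2(FPKM + 1) or log2(FPKM + 0.1), no filter, a replicate block, a loess length-trend offset (span 0.3) and each library left out. CPM was scaled by TMM. Members, gene lists and motifs were chosen with earlier results of these data known. Named list genes were at most 3 per direction by size among called genes of average log2 CPM 1 or more without overlap. Of 165 listed genes, 162 matched by name and 3 by Ensembl ID. Promoters are from RefSeq (GRCm38.p6). Precision is set by 3 libraries per group and 19056916 to 25371321 counts per library. A two-sided exact test of 3 against 3 cannot go below p = 0.1.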

Additional observations from a re-analysis of the deposited data

How the results depend on the processing

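Of 1007 values of the 9 genes under 23 alternatives, 896 kept direction and side of the threshold, 53 lost a call, 20 gained one and 38 changed sign, all of the last for differences that were not called. Where a call or sign changed, the cause was not tested. The 5 genes called for Smad7 loss in unstimulated cells were 3 with DESeq2 and 1 with edgeR on those libraries alone, 3 with limma without a filter, and 3 to 5 with 1 library left out. The 3 called with TGF-β1 were 5 with DESeq2 on all or on those libraries and 5 with edgeR on those libraries, and 2 to 5 with 1 left out (5 without unstimulated control replicate 2 or 3). The 3 called for TGF-β1 in control were 1 with edgeR on those libraries and 2 to 5 with 1 left out (5 without unstimulated control replicate 3). The 3 in Smad7-KO cells and the 0 for the interaction stayed at 3 and 0 with 1 left out. Over all genes, calls ranged from 660 to 7979, 883 to 4623, 391 to 3449, 985 to 3792 and 0 to 14 in these comparisons, against 3907, 1962, 1268, 1550 and 3. DESeq2 on the libraries of a comparison alone called 2282 genes for Smad7 loss in unstimulated cells and 4623 with TGF-β1. That order is the reverse of the main fit, and the study, with DESeq2, also reported more genes with TGF-β1. Replicate numbers did not pair libraries in general, with r above 0.1 in 1 of 12 pairs of the same number. That pair was replicate 2 of unstimulated and TGF-β1 control (r = 0.524), each with the lowest Nrp2 of its group (112 and 174 CPM). The best partner had the same number in 5 of 12 cases. With a replicate block, 3222, 1625, 1107, 1323 and 0 genes were called, and of the 9 genes Vegfa with Smad7 loss in unstimulated cells lost its call (0.31, adjusted p = 0.0559, edgeR).

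Signs changed as follows, in log2. For Vegfc, Smad7 loss in unstimulated cells gave 0.00215 with limma at either filter, 0.00271 with a pseudocount of 0.1, and 0.20 with the length trend removed, with or without a block. TGF-β1 in control gave Vegfc 0.00382 without a filter, 0.019 and 0.0211 with limma, and 0.0579 with the length trend removed. Flt4 in unstimulated cells was -0.15 with the length trend removed and -0.14 with a block too. Nrp2 with TGF-β1 in Smad7-KO cells was -0.027 and -0.0276 with limma. In the interaction, limma gave Pgf -0.0183 and Flt1 -0.13, and removing the length trend gave Nrp1 0.0866, or 0.0731 with a block. With 1 library left out, Smad7 loss in unstimulated cells ranged from -0.0862 to 0.13 for Vegfb, -0.0806 to 0.0809 for Vegfc, -5.8e-05 to 0.69 for Kdr and -0.0197 to 0.37 for Flt4. Kdr ranged from -0.55 to 0.15 with Smad7 loss under TGF-β1 and -0.20 to 0.0667 with TGF-β1 in Smad7-KO cells. TGF-β1 in control ranged from -0.0916 to 0.082 for Vegfc and -0.0158 to 0.53 for Nrp2, and TGF-β1 in Smad7-KO cells from -0.0644 to 0.096 for Nrp2. The interaction ranged from -0.14 to 0.0109 for Nrp1 and -0.52 to 0.043 for Nrp2.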
